A study of Mus musculus with 12 samples.

Results

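The 4 mouse Hox clusters were represented on the array by 38 of the 39 Hox genes of the RefSeq gene table and by 49 of 41174 gene probes. A probe was taken when its deposited gene name was Hox followed by a cluster letter and a number. Cluster A on chromosome 6 had 11 genes, cluster B on chromosome 11 had 10, cluster C on chromosome 15 had 8 and cluster D on chromosome 2 had 9. No probe carried the name of Hoxc11. For 11 genes there was a pair of probes, and the brighter one stood for the gene in every comparison. Hoxb1, a hindbrain patterning gene, was not well above background on any array and was not tested, which left 37 Hox genes among 25415 genes.

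Each of 12 mouse RNA samples was hybridised once, to 1 one-colour array of 60-base probes. The tested cells were 9 induced pluripotent stem (iPS) lines, all of them transduced with Oct4 (Pou5f1). BOiPS were 2 lines made from embryonic fibroblasts with the Polycomb gene Bmi1 and Oct4. SOiPS was 1 line, OOiPS 2 lines and POiPS 2 lines, made by Oct4 from neural stem cell-like cells that had been derived from embryonic fibroblasts with the protein Shh, with oxysterol or with purmorphamine, all activators of hedgehog signalling. OOiPS-TTF were 2 lines from tail-tip fibroblasts of adult mice, again by oxysterol and Oct4. One array held spheres of neural stem cell-like cells from embryonic fibroblasts transduced with Bmi1 alone, which the description field calls an iPS sample. The references were 1 array of mouse embryonic fibroblasts (MEF) and 1 array of embryonic stem (ES) cells from 129/Ola mice. MEF stand for the cells of origin of all lines but OOiPS-TTF, and ES cells for the pluripotent standard. The 9 lines set against MEF include OOiPS-TTF. The labels do not say whether a line is 1 clone, no tail-tip fibroblast array was among the samples, and p-values measure only the spread between these arrays.

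Hox genes encode homeodomain transcription factors that give cells their position along the head-to-tail axis and along the limbs. Within a cluster they are read in order, so that genes with low paralogue numbers act in the hindbrain and neck and genes with high numbers in the lumbar region, tail and digits. Fibroblasts keep a Hox pattern that records the body site they came from. In pluripotent cells the clusters are held silent by Polycomb complexes, of which Bmi1 is a subunit, and trithorax proteins oppose that silencing.

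The homeobox, which encodes the DNA-binding homeodomain, is the stretch that Hox genes share most, so the letters of probes that read it bear on how far one gene's signal can be told from another's. The group 13 genes act in digits, tail and genital tubercle. Aligned over 44 bases, the homeobox probes of Hoxa13 at chr6:52222385-52222444 (minus strand), Hoxb13 at chr11:96304167-96304226 (plus strand) and Hoxd13 at chr2:74513664-74513723 (plus strand), in the mm7 coordinates that the array files carry, had the same base in all 3 at 23 positions, printed in capitals, 5′ to 3′. For Hoxa13 and Hoxd13 these are the dimmer second probes, well above background on 1 and 2 arrays, and for Hoxb13 it is the probe in use. Among probes in use, those of Hoxa9 and Hoxb3 matched at 35 of 46 aligned bases, with a shared run of 22. Those of Hoxa9 and Hoxd10 matched at 22 of 24. How far such likeness mixes the signals was not tested.
Hoxa13: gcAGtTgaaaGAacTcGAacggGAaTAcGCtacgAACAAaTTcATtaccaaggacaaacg
Hoxb13: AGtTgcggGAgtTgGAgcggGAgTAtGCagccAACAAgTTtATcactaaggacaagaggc
Hoxd13: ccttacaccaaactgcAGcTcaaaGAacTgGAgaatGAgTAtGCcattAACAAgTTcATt

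All values below are log2 processed signal minus the array's 75th percentile, in log2 units, and describe 1 probe across arrays, since the levels of different probes are not comparable. Between 58.4% and 80.0% of all gene spots were well above background, lowest in SOiPS and highest in the spheres, and the lowest signal above background ran from -7.27 to -4.20. Signals below an array's floor are not measurements of a level. Pou5f1 averaged 3.68 ± 0.30 in the lines (SD, n = 9), with -5.56 in the spheres, 3.62 in ES cells and -6.66 in MEF, and Nanog 4.89 ± 0.40 in the lines, with -4.68, 5.14 and -3.96 in those arrays. Sox2, a gene of both pluripotent and neural stem cells, averaged 3.87 ± 0.33 in the lines, with -9.14 in the spheres (not well above background), 3.71 in ES cells and -1.16 in MEF. Bmi1 read -2.39 ± 0.48 in the lines, with -2.78 and -1.92 in BOiPS, -0.23 in the spheres, -2.10 in ES cells and 0.37 in MEF, so its probe did not show the Bmi1 transduction named in the labels. Of 14 neural stem markers 10 were well above background in the spheres, where Sox2, Slc1a3, Prom1 and Egfr were not. MEF had 12 and the lines 10 to 14, so this count does not set neural stem cells apart from fibroblasts. At 2-fold, 4 of the 14 were higher in the spheres than in MEF and 5 lower. These markers do not settle whether the spheres are the cell type they are labelled as. All 20 fibroblast markers were well above background in MEF and 18 in the spheres.

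Hox transcripts were detected in every cell type. The spheres had 42 Hox probes well above background, the lines 25 to 40 with a median of 36, ES cells 25 and MEF 44. SOiPS and POiPS 1 had 25, as ES cells did, and both BOiPS lines 40, on arrays where 58.4%, 63.7%, 78.4% and 76.7% of all spots were above background in SOiPS, POiPS 1, BOiPS 1 and BOiPS 2. Counted above the highest floor of any array, which puts the arrays on 1 limit of detection, there were 36 in the spheres, 24 to 34 in the lines, 24 in ES cells and 32 in MEF. The order of the lines differed by this count, with 26 in both BOiPS lines, 27 in SOiPS and the most, 34, in OOiPS-TTF 2. Of the 37 genes tested, 34 were well above background in the spheres, 21 in ES cells and 37 in MEF, and 15 were so on all 12 arrays. Since all 37 were detected in MEF, detection in ES cells without MEF could not occur, and 16 were detected in MEF only of this pair. The ES array had the higher floor, -5.36 against -6.85 in MEF. It also had fewer of all gene spots above background, 64.9% against 72.8%.

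**Figure D1:**
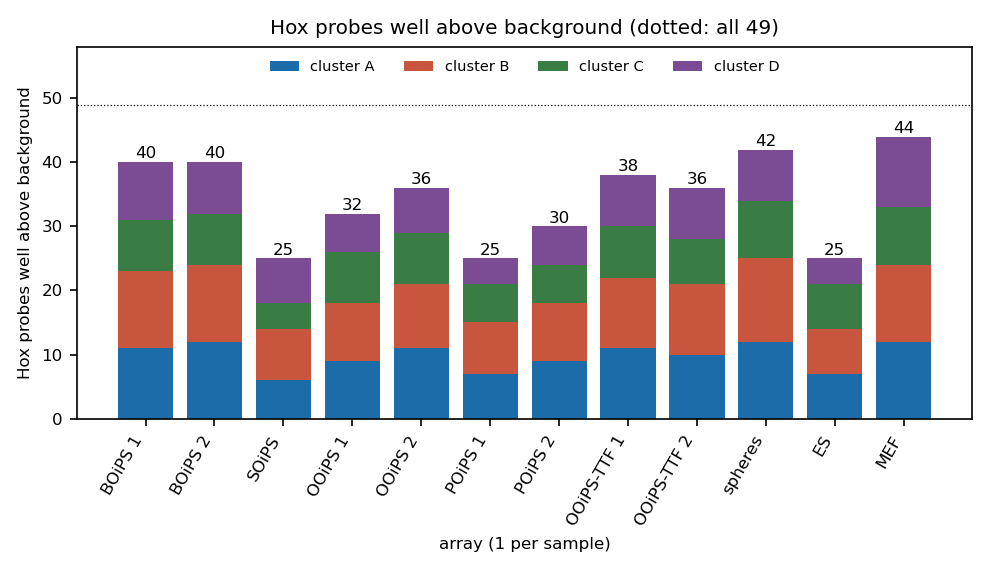
Number of Hox probes well above background on each of the 12 arrays (bars, stacked by cluster A to D; the dotted line marks all 49 probes). MEF with 44 and the spheres with 42 stand highest, and SOiPS, POiPS 1 and ES with 25 lowest.

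**Figure D2:**
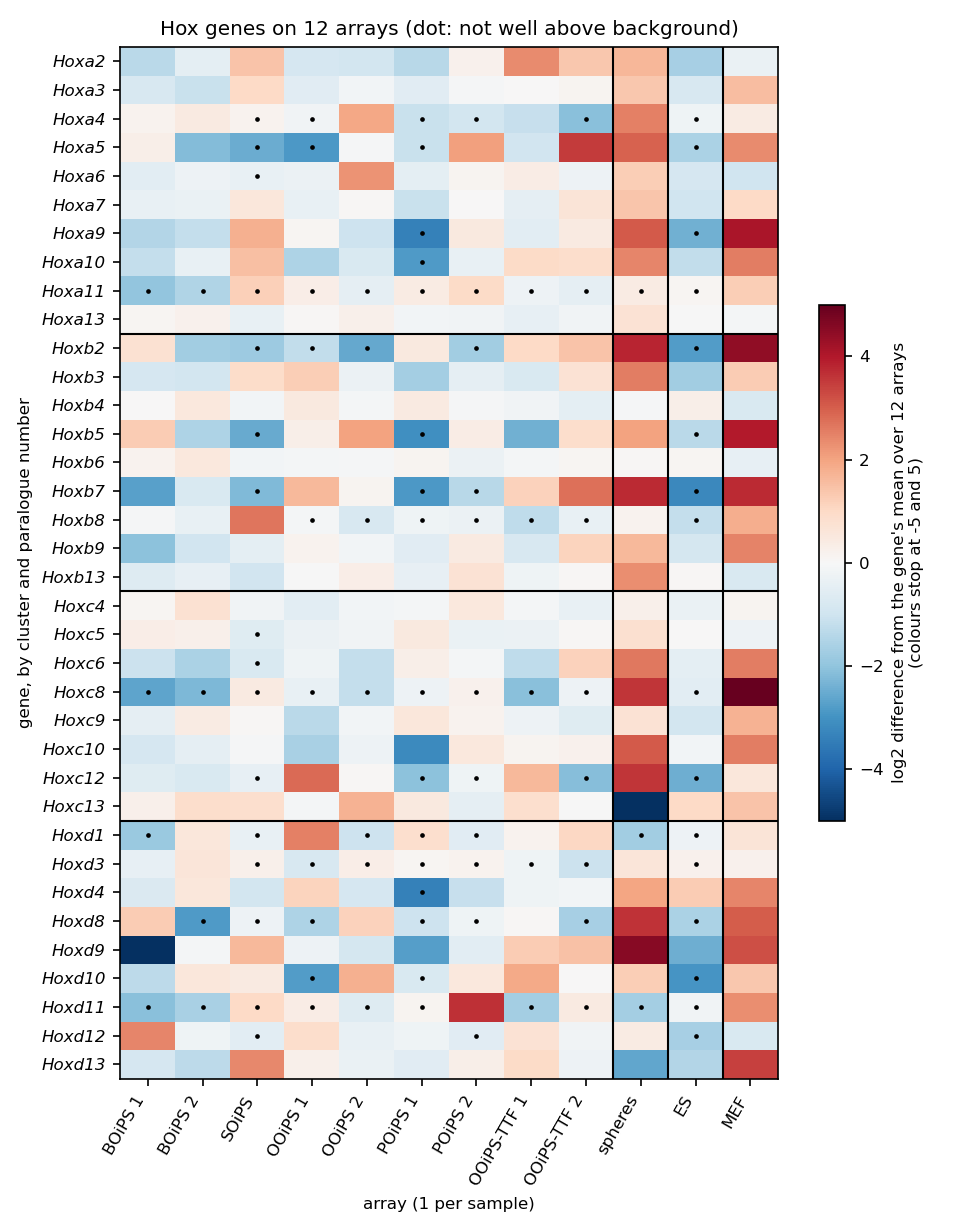
Hox genes (rows, by cluster and paralogue number) on 12 arrays (columns) as the log2 difference from the gene's own mean over the arrays, red above and blue below, with dots where the probe was not well above background. The spheres and MEF columns are mostly red, with Hoxc13 in the spheres as the deepest blue of that column, and Hoxc8 carries dots in all 9 lines and in ES.

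The brightest pair of members of each cluster is described first. Hoxa13, a digit and genital gene, ran from -0.04 to 0.62 in the 9 lines with a median of 0.20, against 0.34 in ES cells and 0.27 in MEF, and read 1.07 in the spheres. Hoxb6, a trunk gene, ran from 3.65 to 4.47 in the lines with a median of 3.91, against 4.04 in ES cells and 3.53 in MEF, and the spheres differed from ES cells by -0.05. Hoxa7, a thoracic gene, ran from 1.29 to 3.06 in the lines with a median of 2.11, all below the 3.43 of MEF, and read 3.82 in the spheres and 1.42 in ES cells. The probes in use for these 3 genes were well above background on every array, pluripotent cells included. The second probe of Hoxa13 was so on 1 array only, the spheres, and that of Hoxb6 on all 12. Across the arrays the signals of the pair correlated at 0.007 for Hoxa13 and 0.12 for Hoxb6, so these levels rest on 1 probe each.

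Hoxc13, needed for hair and nail, stood apart in 1 sample. It ran from 0.67 to 2.87 in the lines with a median of 1.63, and read 2.13 in ES cells and 2.56 in MEF, but -5.73 in the spheres. The sphere array was the only one of 12 on which Hoxc13 lay below zero.

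The other bright members were higher in MEF than in the lines. Hoxb9, a thoracic gene, ran from -1.35 to 1.81 in the lines with a median of 0.24, against 2.34 in the spheres, -0.17 in ES cells and 3.18 in MEF. Hoxc9, which sets thoracic motor neuron identity, ran from -0.86 to 1.04 with a median of 0.36, against 1.22 in the spheres, -0.42 in ES cells and 2.23 in MEF. In both genes every line lay below MEF, and the sphere array lay between the lines and MEF. Hoxd9, a limb and trunk gene, ran from -5.72 in BOiPS 1 to 1.11 in SOiPS with a median of -0.78, against 4.03 in the spheres, -2.94 in ES cells and 2.73 in MEF. Hoxd13, the digit gene of cluster D, ran from -2.35 to 1.36 with a median of -1.29, against -3.64 in the spheres, -2.50 in ES cells and 2.36 in MEF. By the probes in use, Hoxd9 was thus higher in the spheres than on any other array. Hoxd13 was lower there than on any other. The second probe of Hoxd9, well above background on all 12 arrays too, read highest in MEF, at -0.84, against -1.27 in the spheres.

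Against MEF, 3 Hox genes were lower in the iPS lines and 0 were higher. The 3 were Hoxc8 and Hoxc6 of the thoracic and brachial region and Hoxb2, a hindbrain gene that acts in facial nerve development. They are 8.11% of the 37 members, beside 2.74% of all genes tested called lower and 8.18% called higher in this comparison by limma with Benjamini-Hochberg adjustment at 0.05. The difference was below zero for 29 of 37 Hox genes with a median of -1.48, against 38.1% of all genes and a median of 0.44. Before adjustment, 14 of the 37 had p under 0.05, beside 7019 of all 25403 genes.

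Hoxc8 was not well above background in any of the 9 lines, where its signal ran from -9.37 to -6.27 with a median of -7.11, against -1.37 in MEF. It was at least 19.7-fold lower in the lines (limma adjusted p = 0.0056). Its probe entered the test through MEF and the spheres, the only 2 arrays where it was well above background, and the p-value rests on line signals below the floor. ES cells, at -7.27, were not well above background either. Hoxb2 ran from -7.00 to -3.02 in the lines with a median of -5.69 and 5 of 9 lines above background, against 0.01 in MEF. Its difference was -5.05 ± 1.43 (SE), with an adjusted p of 0.0479 by limma. Hoxc6 ran from -5.19 to -2.46 with a median of -4.37 and 8 of 9 lines above background, against -1.07 in MEF, a difference of -3.08 ± 0.88 (SE, limma adjusted p = 0.0492). For all 3 genes every line lay below the MEF array.

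Hoxb2 and Hoxc6 sat just under the threshold, and Hoxc8 well under it. Of the other settings tried, Hoxc8 passed in 20 of 21, Hoxb2 in 10 of 22 and Hoxc6 in 8 of 22, with the same direction throughout. For Hoxc8 the settings reuse line signals of the same dim probe, so its count is not separate support. Raising dim signals to the highest floor set its lines to 1 value (SE 0.0146). The filter of at least 6 arrays above background left Hoxc8 out. On the slide that holds MEF, where BOiPS are the only lines, the differences were -7.81 for Hoxc8, -4.93 for Hoxb2 and -3.88 for Hoxc6, with 1 residual degree of freedom and 0 calls. A fixed slide block gives these same values by construction, since it sets MEF against the BOiPS lines alone, with limma adjusted p of 0.0027, 0.0226 and 0.0436. With slide as a random block, Hoxc8 passed, while Hoxb2 and Hoxc6 did not (limma adjusted p = 0.0511 and 0.0521).

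**Figure D3:**
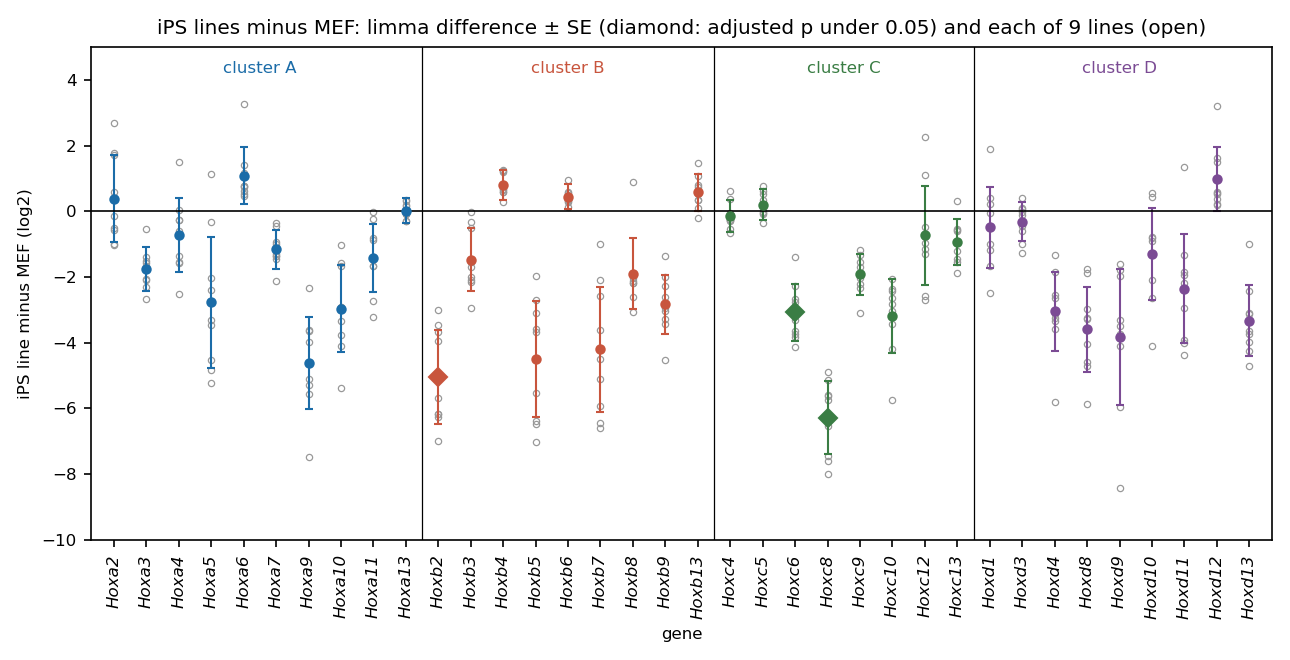
iPS lines minus MEF in log2 units for Hox genes by cluster: filled symbols give the limma difference and its SE, diamonds mark adjusted p under 0.05, and open circles give each of the 9 lines. Hoxb2 at -5.05, Hoxc6 at -3.08 and Hoxc8 at -6.29 are the diamonds, and most filled symbols lie below zero.

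Genes below MEF in all 9 lines numbered 18 of 37, beside 17.6% of all genes, and 4 lay above it in all lines, beside 31.8%. For Hoxa11 and Hoxc8 among the 18, all line signals were below the floor. By cluster, the median difference was -1.16 in A, -1.90 in B, -1.43 in C and -2.35 in D, with 0 of 11, 1 of 9, 2 of 8 and 0 of 9 members called lower. By region, it was -0.49 over the 7 anterior genes (paralogues 1 to 3), -1.90 over the 15 central genes (4 to 8) and -1.92 over the 15 posterior genes (9 to 13). Paralogue group 9 had a median of -3.33 over 4 genes and group 8 of -3.60 over 3, while group 4 had -0.44 over 4 genes and group 6 had 0.45 over 3. No test of these differences between clusters, regions or groups was made.

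Several members with large mean differences did not pass. Hoxa9, a gene of blood progenitors and leukaemia, had a difference of -4.63 ± 1.41 (SE, limma adjusted p = 0.0617), with values of -6.95 to -1.79 in the lines and 0.53 in MEF. Hoxb5 and Hoxb7, trunk genes of cluster B, differed by -4.49 ± 1.77 and -4.21 ± 1.90 (SE), and in both some lines were not well above background. Hoxb9, at -2.83 ± 0.90, had an adjusted p of 0.0714 by limma, and Hoxd13, at -3.33 ± 1.07, of 0.0747. For each of these 5 genes every line lay below MEF.

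A smaller set had line means at or above MEF. Hoxa6, Hoxb4, Hoxb6 and Hoxd12 were higher in all 9 lines than in MEF, by 1.08 ± 0.87, 0.80 ± 0.45, 0.45 ± 0.38 and 0.97 ± 0.97 (SE), and none passed. Hoxb4 is known for expanding blood stem cells, and its signal was narrow, from -2.69 to -1.71 in the lines, against -2.28 in the spheres, -1.91 in ES cells and -2.96 in MEF. Hoxa2, the selector gene of the second branchial arch, was above MEF at -2.65 in 4 lines, among them both tail-tip lines at 0.04 and -0.94.

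Of 20 fibroblast markers, all had line means below MEF and 5 fell by the test, among them Postn and Fap, which were not well above background in any line. The log2 of their summed level was 3.89 to 6.33 in the lines, 7.30 in the spheres, 4.25 in ES cells and 7.94 in MEF, highest among the lines in OOiPS-TTF 2, POiPS 2 and BOiPS 1, the arrays that correlated best with MEF over all genes. Without these 3 lines, a setting chosen after seeing the data, 4 Hox genes were lower. Over all genes 843 were then lower and 1650 higher, against 697 and 2079 with all lines. The part of these markers' cells in the Hox values was not tested, and in bulk RNA fewer cells of a type cannot be told apart from less RNA per cell.

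The pair of probes of a gene did not always run the same way. Their differences between lines and MEF had the same sign for 6 of 11 genes and opposite signs for Hoxa3, Hoxa4, Hoxb6, Hoxb8 and Hoxd3. Hoxb9 gave -2.83 and -3.32, Hoxc10 -3.19 and -4.10, and Hoxd9 -3.83 and -2.27 with the brighter and the second probe. Both probes of these 3 genes thus lay lower in the lines.

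Hoxb6 showed the opposite. Its bright probe, designed on another transcript record than the second one, was 0.45 higher in the lines, and the second, well above background on all 12 arrays too, was -1.02. The second probe of Hoxb2 lies on the strand opposite to the cluster and gave -0.92, against -5.05 for the first. The second probes of Hoxa4, Hoxa13 and Hoxb8 were well above background on 1 array each.

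**Figure D4:**
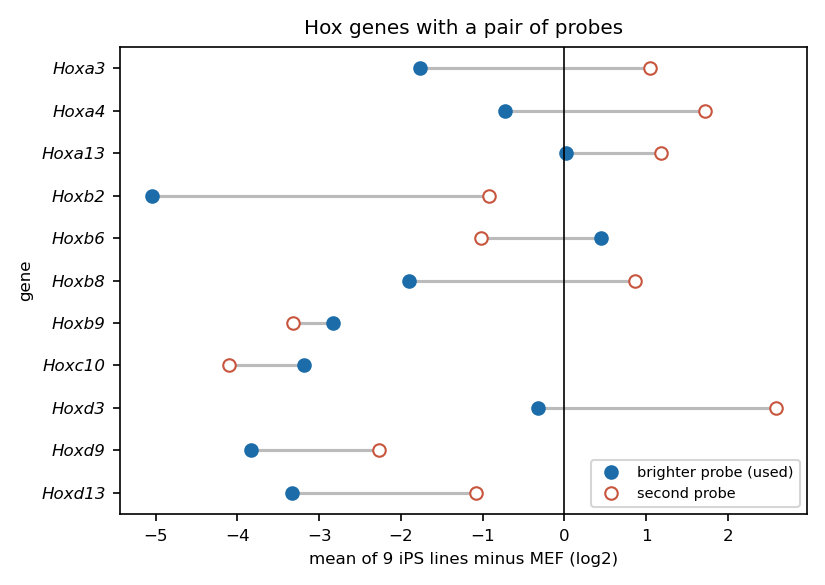
Mean of the 9 iPS lines minus MEF in log2 units for the 11 Hox genes with a pair of probes, with filled circles for the brighter probe and open circles for the second. The circles lie on both sides of zero for Hoxa3, Hoxa4, Hoxb6, Hoxb8 and Hoxd3, and on the same side for Hoxb9, Hoxc10 and Hoxd9.

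Against ES cells, 0 of 37 Hox genes were called in the lines, beside 0.0276% of all genes in either direction (0.00788% higher and 0.0197% lower). By limma 0 of 37 had an unadjusted p under 0.05, beside 1133 of all 25377 genes. The median Hox difference was 0.66, against 0.03 over all genes. Of the 37 differences 24 lay above zero and 13 (35.1%) below, beside 48.0% of all genes below. In ES cells 16 of the 37 genes were not well above background. With dim signals raised to the highest array floor, the median difference of a line from ES cells was 0.00 to 0.38, against 1.64 for the spheres and 1.32 for MEF.

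In all 9 lines, 9 Hox genes read above ES cells, beside 9.75% of all genes, and 1 below, beside 8.58%. For 5 of the 9, Hoxb2, Hoxb7, Hoxc12, Hoxd10 and Hoxd12, ES cells and some lines were not well above background, so the order of those signals is not a measurement. Among them, Hoxd12, a digit gene, was above background in 7 of 9 lines, with -4.58 to -1.57 in the lines and -5.66 in ES cells. Hoxd10, a lumbar gene, was above background in 7 lines, with -7.00 to -2.32, against -7.16 in ES cells. Hoxa2 had -3.69 to 0.04 in the lines, against -3.97 in ES cells. The gene below, Hoxd4, a cervical gene, lay below ES cells in every line, at -6.05 to -1.57 against -1.41. None of these 4 differences passed (limma adjusted p = 0.9999 each).

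In the spheres, Hoxc13 and Hoxd13 were far below their MEF level and Hoxb13 and Hoxc12 above it. With 1 array each there is no test, and a gene was counted if it differed by 2-fold or more and its brighter array was well above background. Against MEF, 9 Hox genes were higher in the spheres and 10 lower, beside 33.0% and 17.6% of all genes (50.5% in either direction), so the share of Hox genes that differed was near that of all genes, and the median was 0.10. Against ES cells, 24 were higher in the spheres and 3 lower, beside 27.4% and 21.8% of all genes (49.2% in either direction), with a median of 2.26. In ES cells against MEF, 1 was higher and 24 lower, beside 26.6% and 20.7% (47.3% in either direction), with a median of -2.48. The 3 comparisons share their arrays, so each is a description of the same 3 samples.

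Members near their MEF level in the spheres were found in several clusters. Hoxb7 read -0.29 in the spheres, -7.27 in ES cells and -0.30 in MEF. Hoxc6 read -0.97 in the spheres, -4.12 in ES cells and -1.07 in MEF. Hoxa10, which patterns the uterus and the lumbar spine, read 0.94 in the spheres, -2.73 in ES cells and 1.05 in MEF. These 3 differed from MEF by less than 2-fold in the spheres and by far more in ES cells.

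The members higher in the spheres than in MEF came from all clusters. Hoxb13, a tail and prostate gene, read 0.03 in the spheres, -2.22 in ES cells and -3.03 in MEF. Hoxc12 read -1.42 in the spheres, was not well above background in ES cells and read -4.43 in MEF. Hoxa6 read -2.45 in the spheres, -4.51 in ES cells and -4.68 in MEF, and Hoxa4 read -2.56 in the spheres, -5.30 in ES cells (not well above background) and -4.67 in MEF. Hoxa2, Hoxb3, Hoxc5, Hoxd9 and Hoxd12 were the other 5, with differences of 1.05 to 1.99. For Hoxd9 this holds for the brighter probe, and the second gave -0.42. Among the 9 lines the highest values of these genes were, in part, of the same size, such as -2.16 for Hoxc12 in OOiPS 1 and -1.42 for Hoxa6 in OOiPS 2.

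Of the 10 members that were lower in the spheres than in MEF, 5 were posterior. Hoxc13 differed by -8.30 and Hoxd13 by -6.00 (levels above). Hoxd11, a forearm gene, was not well above background in the spheres at -8.96 and read -4.94 in MEF, at least 4.0-fold lower. Hoxa9 differed by -1.02 and Hoxc9 by -1.01, at the edge of the 2-fold limit. Others were Hoxb5 at -1.96, Hoxb8 at -1.65, Hoxc8 at -1.76 and Hoxd1, which was not well above background in the spheres and at least 3.57-fold lower. For Hoxb8 this holds for the brighter probe. Its second probe, well above background in the spheres alone, gave 3.56.

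**Figure D5:**
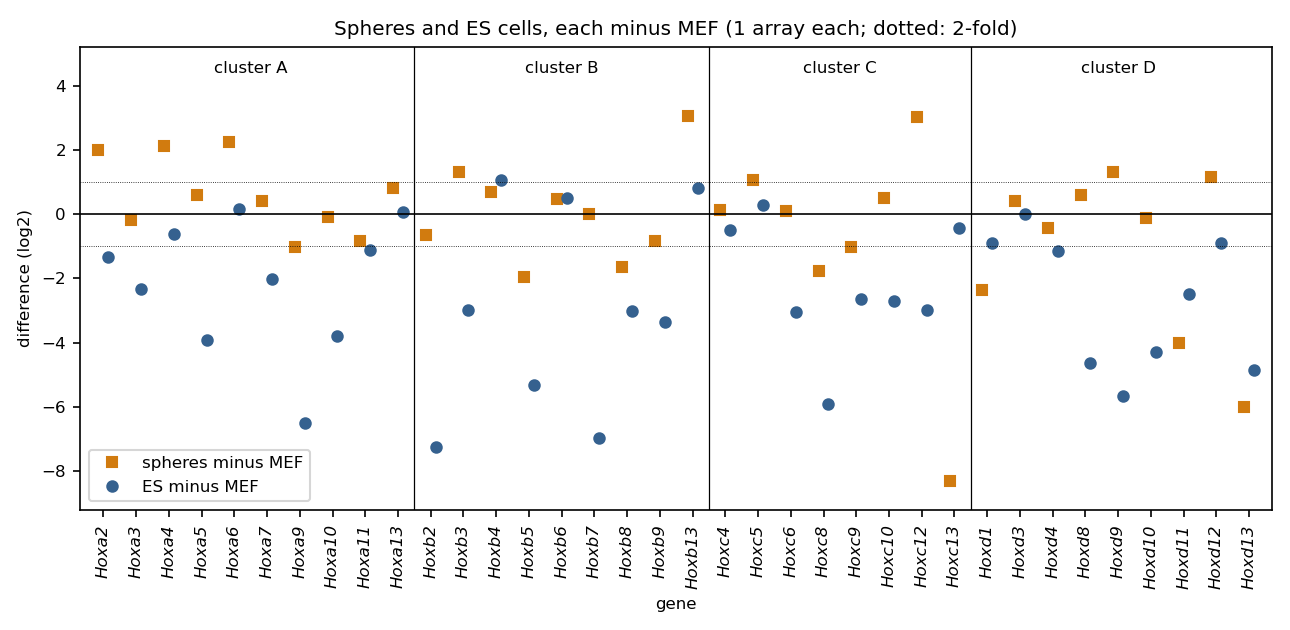
Spheres minus MEF (squares) and ES cells minus MEF (circles) in log2 units for Hox genes by cluster, 1 array each, with dotted lines at a 2-fold difference. Squares lie beyond the dotted lines on both sides, while the circles beyond them lie below, except that of Hoxb4 at 1.05. The square of Hoxc13 at -8.30 is the lowest of all points.

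By the 2-fold count, ES cells were lower than MEF in 11 of 15 posterior, 9 of 15 central and 4 of 7 anterior genes. The posterior count includes Hoxa11, Hoxd11 and Hoxc12, which were not well above background in ES cells. MEF read -6.22, -4.94 and -4.43 for them, against an ES floor of -5.36, so a 2-fold difference is not shown. The counts therefore do not rank the regions. The bounds were widest for Hoxa9, at least 59.7-fold lower in ES cells, Hoxb2, at least 41.4-fold, and Hoxb5, at least 40.3-fold. Hoxb4 was the gene that was higher, by 1.05. The other 12 were not counted, among them Hoxa13, Hoxb6, Hoxc5 and Hoxa6 with differences of 0.07, 0.51, 0.28 and 0.17.

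BOiPS and the spheres share transduction with Bmi1, and BOiPS have Oct4 in addition. In BOiPS, 1 Hox gene was higher and 1 lower than in the spheres, beside 3.41% and 1.63% of all genes, 5.04% in either direction (limma). Hoxc13 read 1.37 and 2.02 in BOiPS, against -5.73 in the spheres, a difference of 7.43 ± 0.93 (SE, limma adjusted p = 0.0094) that passed in 11 of 11 other settings. Hoxc8 was not well above background in BOiPS at -9.37 and -8.98, against -3.14 in the spheres, at least 15.4-fold lower (limma adjusted p = 0.0145), and passed in 7 of 10 others. This p-value too rests on BOiPS signals below the floor, and the call was lost with normexp (limma adjusted p = 0.0779) and without BOiPS 1 or BOiPS 2 (0.0578 and 0.055). The fit takes the spread of the single sphere sample from the groups of 2 lines.

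Over the 37 genes, 29 differences between BOiPS and the spheres were below zero and the median was -2.15, against 52.9% of all genes and a median of -0.08. Before adjustment 17 had p under 0.05 by limma, beside 5055 of all 25382 genes. Pou5f1, Nanog and Sox2 were called higher in BOiPS, while Bmi1 differed by -2.12 (limma adjusted p = 0.117). Hoxd9 differed by -7.19 ± 1.99 (SE, adjusted p = 0.107), with BOiPS at -5.72 and -0.60 and the spheres at 4.03. Hoxb7 differed by -5.49 ± 1.22 (SE, adjusted p = 0.0616) and Hoxb13 by -2.85 ± 0.61 (SE, adjusted p = 0.0561). BOiPS and the spheres lay on different slides, which hold no other pair of these groups.

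Among the iPS groups, 0 Hox genes were called in any of 3 comparisons, beside 0.0% of all genes in each. The first compared OOiPS-TTF with OOiPS, lines that were both made with oxysterol and Oct4 but from tail-tip and from embryonic fibroblasts. The median Hox difference was 0.04, and 4 of 37 had unadjusted p under 0.05 by limma, beside 1649 of all 25400 genes. OOiPS-TTF and OOiPS lie on different slides. Hoxa2 had 0.04 and -0.94 in OOiPS-TTF, against -3.16 and -3.22 in OOiPS, a difference of 2.74 ± 0.69 (SE, limma adjusted p = 0.627). Hoxb2 had -3.45 and -3.02 in OOiPS-TTF, against -5.69 and -7.00, both not well above background, in OOiPS. Hoxa10 had -0.54 and -0.61 in OOiPS-TTF, against -3.05 and -2.28 in OOiPS. The adjusted p-values of these 3 genes missed the threshold. Hoxa4, the other of the 4 genes with unadjusted p under 0.05 by limma, lay the opposite way. It had -6.25 and -7.19 in OOiPS-TTF, against -5.27 and -3.17 in OOiPS, with -7.19 and -5.27 not well above background. Hoxb4 was also lower in OOiPS-TTF, at -2.38 and -2.69, against -1.75 and -2.30 in OOiPS. Hoxb13, the tail gene, had -2.50 and -2.24 in OOiPS-TTF, against -2.28 and -1.94 in OOiPS, and overlapped.

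BOiPS were then compared with the 5 hedgehog-activator lines of embryonic fibroblasts. The median was -0.32 and 5 of 37 genes had unadjusted p under 0.05 by limma, beside 2505 of all 25355. Hoxd13 had -1.89 and -2.35 in BOiPS, against -1.61 to 1.36 in the 5 lines, a difference of -1.82 ± 0.51 (SE, limma adjusted p = 0.235). Hoxa3, which acts in thymus and parathyroid, had -2.99 and -3.33 in BOiPS, against -2.77 to -1.20 in the 5 lines (-1.08 ± 0.36, SE, limma adjusted p = 0.345). Hoxa11 and Hoxc8 were not well above background on any of these 7 arrays, and Hoxd11 was so in POiPS 2 alone, so their unadjusted p-values rest on signals below the floor.

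OOiPS and POiPS differ in the activator, oxysterol or purmorphamine, at doses that the labels do not give. The median was 0.09 and 4 genes had unadjusted p under 0.05 by limma, beside 1228 of all 25404. Hoxb7 had -2.40 and -3.91 in OOiPS, and -6.89 and -5.41 in POiPS, both not well above background there (2.99 ± 1.00, SE, limma adjusted p = 0.871). Hoxd4 had -1.57 and -3.51 in OOiPS, and -6.05, not well above background, and -3.84 in POiPS (2.41 ± 0.97, SE, limma adjusted p = 0.871).

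The spread among the 9 lines differed widely from gene to gene. The range was under 2 log2 units for 9 genes and over 4 for 14. It was 6.83 for Hoxd9, which was well above background in every line. The second probe of Hoxd9, well above background in every line too, ran only from -3.78 to -1.48. The low ends of other wide ranges, such as those of Hoxa5, Hoxb7 and Hoxd11, were signals below the floor, so their size is not known. The range was narrowest for Hoxa13 at 0.65, Hoxb6 at 0.82 and Hoxb4 at 0.99. For Hoxb6 this too depends on the probe, as its second one, above background in every line, ran from -4.76 to -0.58. Hoxa5, which acts in lung and neck, read -0.24 in OOiPS-TTF 2 and -1.71 in POiPS 2, against -1.39 in MEF, and was not well above background in OOiPS 1. These are the lines with the highest fibroblast marker sums, 6.33 and 5.94, whose part in the result was not tested. Hoxd11 was well above background in 1 line only, POiPS 2, at -3.59.

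Genes that act on the Hox clusters or with Hox proteins were read from lists drawn up by function, with the background for iPS lines against MEF as above. Of 16 Polycomb genes, 5 rose and 1 fell in the lines. Phc1 and Cbx7, subunits of the same complex as Bmi1, were 5.69 and 5.64 higher, Pcgf2, a relative of Bmi1, was 5.42 higher, Ezh2, the methyltransferase of the second complex, was 2.48 higher, and Bmi1 was -2.76. Suz12, the partner of Ezh2, was the fifth that rose, at 1.63. Of 11 trithorax and related activators 1 rose, the demethylase Kdm6a, at 2.60, and 0 fell. Pcgf2 passed in 10 of 22 other settings and Kdm6a in 8 of 22.

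Of 9 Hox cofactors, which bind DNA beside Hox proteins, 1 rose, Pknox2, by 4.67, and 0 fell. In the retinoic acid pathway, which switches on anterior Hox genes, 1 of 19 rose and 1 fell, Stra8, a target gene, at least 193-fold higher, and Dhrs3, a retinal reductase, at -2.45, which passed in 8 of 22 other settings. Of 11 axial regulators, which act upstream of Hox genes, 2 rose, the RNA-binding proteins Lin28a and Lin28b, at least 534-fold and 28.0-fold. Of 17 limb and trunk positional genes 4 fell, Pitx1 at -6.19, Lhx9 at -5.02, Tbx15 at -4.64 and Hand2 at -2.38, and 0 rose. Of 17 other homeobox genes 2 rose, the forebrain genes Otx2, at least 27.1-fold, and Lhx5, at 5.75.

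Of the cell type lists, 10 of 14 pluripotency genes rose in the lines and 0 fell, 3 of 14 neural stem genes rose and 2 fell, and 2 of 12 early differentiation genes rose and 0 fell. The genes next to the Hox clusters gave 0 calls of 14, with a median of 0.31 and differences of -0.89 to 1.17. Against ES cells 0 genes of any of these lists were called. In BOiPS against the spheres, Phc1 and Cbx7 were 5.51 and 3.87 higher, Pknox2 was 5.58 higher, and Emx2 of the limb and trunk list was -2.87. Aldh1a2, which makes retinoic acid, was at least 16.8-fold higher in BOiPS, and 0 of the genes flanking the clusters were called.

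Promoter sequence was at hand for 22 of the 38 genes, from RefSeq in the GRCm38.p6 build, and CG pairs are of interest because Polycomb complexes bind CG-rich promoters. In the 250 bases before the start, Hox genes held 2 to 35 CG pairs with a median of 12, against 6 over all 27025 promoters, and their median GC content was 56.8%, against 52.0%. The letters TATAAA, read on both strands, were in 3 of 22 (13.6%), against 3504 of the 27025. Hoxa9 and Hoxb4 are shown since, among the genes with a promoter entry, they lie at opposite ends for ES cells against MEF, at least 59.7-fold lower and 1.05 higher. Hoxa9, chr6:52227371-52227620 on the minus strand, holds 3 CG pairs and Hoxb4, chr11:96318017-96318266 on the plus strand, holds 14, in capitals.
Hoxa9: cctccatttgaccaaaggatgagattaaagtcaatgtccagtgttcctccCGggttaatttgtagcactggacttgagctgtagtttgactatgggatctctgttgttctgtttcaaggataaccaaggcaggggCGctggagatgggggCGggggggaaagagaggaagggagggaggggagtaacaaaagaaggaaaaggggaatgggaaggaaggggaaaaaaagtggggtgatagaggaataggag
Hoxb4: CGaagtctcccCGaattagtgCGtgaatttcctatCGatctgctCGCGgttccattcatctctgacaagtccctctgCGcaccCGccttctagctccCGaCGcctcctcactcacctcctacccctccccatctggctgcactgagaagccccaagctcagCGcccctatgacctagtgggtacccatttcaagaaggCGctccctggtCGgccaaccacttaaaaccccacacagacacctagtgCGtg
Genes with many and with few CG pairs had both large and small differences between lines and MEF. Hoxd13, with 31 pairs, stood at -3.33, and Hoxd4, with 3, at -3.05, while Hoxa13, with 35, stood at 0.02.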

How the data were processed

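RNA of 12 samples was read on 12 one-colour arrays. The deposited intensity values are processed signals of Agilent Feature Extraction 9.5.3.1, background-subtracted and not scaled between arrays, per the file headers, and the deposited flags for signal above background, saturation and outliers come from the same program, per the file headers. No source used here gives further upstream steps. From these, log2 signals minus each array's 75th percentile were computed, without control and outlier spots. A probe well above background on at least 1 array was kept, and each gene was given by its brightest probe. Limma 3.58.1 in R 4.3.3 was fitted with 4 classes (8 residual degrees of freedom) for iPS lines against MEF and ES, and with 8 groups (4 degrees of freedom) otherwise, over all genes, with Benjamini-Hochberg adjustment. Single arrays took their spread from the replicated groups. Where a gene was dim on every array of a group, a bound is given, the dim arrays being set at no less than their floor. For Hoxd10 and Hoxd12 against ES cells no bound is given, since some lines were dim too. The fits were tested on simulated data with 200 changed genes. Names came from the files and the RefSeq table. Members, lists and tests were chosen with earlier results of these data known. Alternatives changed the background, scaling, filter, probe choice, model, slide and samples. Every Hox member may be named, with values for those called and for the brightest 2 of each cluster, other members being examples chosen after their values were seen, and up to 4 genes of each list with the largest differences among those that passed, plus Bmi1, Pou5f1, Nanog and Sox2. Ezh2 and Suz12 fell outside this rule. The lists were 12, with 174 of 183 members measured. Slides, with 4 arrays each, were tested as a block. Sample numbers did not pair samples, since the correlations of their deviations ran from -0.16 to 0.24. The number of arrays limits the precision. Values of 1 tested member and some probe sequences are not reported here, and the counts include that member.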

Additional observations from a re-analysis of the deposited data

Results flagged for a closer look

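Among the 9 iPS lines, 3 of 37 Hox genes had 1 line far from the other 8, by the gap to its neighbour over the whole range, and chance gives about 1 in 20 such cases. The rule was run on these 37 genes only, so the share over all genes is not known. Hoxa6 read -1.42 in OOiPS 2, with the next line at -3.29 and the lowest at -4.21. Hoxb8 read -3.49 in SOiPS, the array with the highest floor, with the next line at -6.24. It was well above background in 3 of the 9 lines, so its range rests in part on signals below the floor. Hoxd12 read -1.57 in BOiPS 1, with the next line at -3.14 and the lowest at -4.58. The 3 outlying signals themselves were all well above background.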

How the results depend on the processing

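The Hox counts against MEF moved with the processing, always lower in the lines and never higher: 3 genes in the reported fit, 8 with normexp background, 6 with dim signals at the highest floor and 6 with a fixed slide block, 1 with the percentile over detected probes, without a filter and with slide as a random block, and 0 (14 at unadjusted p under 0.05, limma) on the slide of MEF and ES alone, which leaves 1 residual degree of freedom. Leaving out each line gave 1 to 5 genes: 1 without BOiPS 2, OOiPS 2 or POiPS 2, and 5 without SOiPS. The median Hox difference stayed between -2.03 and -0.94. Over all genes the calls were 2079 higher and 697 lower with a median of 0.44, against 1616 and 1236 (median 0.07) with dim signals at the highest floor, 1836 and 1094 (0.33) with normexp, and 1641 and 978 (0.12) with quantile normalization. For the lines against ES cells, each setting gave 0 genes. BOiPS against the hedgehog-activator lines gave 1 lower gene with dim signals at the highest floor and 1 without a filter, against 0. Over all genes these settings called 325 lower and 15 higher, and 2359 lower and 52 higher, against 0 in the reported fit. BOiPS against the spheres gave 5 genes with normexp, with dim signals at the highest floor and with slide as a random block, and 1 to 2 when a line was left out, 1 without BOiPS 1. Over all genes, BOiPS against the spheres gave 866 higher and 414 lower in the reported fit. It gave 760 and 469 with normexp, 589 and 885 at the highest floor, and 1042 and 605 with the random block. Spheres against MEF gave 12 genes with normexp, against 19, beside 5153 higher and 3545 lower of all genes, against 8369 and 4459. The median of spheres against MEF turned to -0.035 with quantile normalization, and Hoxb8 in that comparison turned to 0.95 with the mean of its probes. The causes were not tested. With sample number as a replicate block, each of the 3 comparisons among lines gave 0 Hox genes. No paired analysis was possible because MEF, ES cells and spheres are single arrays, for the other comparisons. Dim probes limit what can be read: 16 of 37 genes were not above background in ES cells.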
